A study of Mus musculus with 6 samples.

Results

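The chemokines that effector T cells make were examined on 6 mouse expression arrays, 3 of the T cell line 2D11 and 3 of the T cell line OvacD8. The genes were Ccl1, Ccl3, Ccl4, Ccl5, Ccl9, Ccl17, Ccl22, Xcl1, Cxcl10 and Cxcl16. Their members on the array were the probe sets to which the platform annotation gives one of these symbols and no other, which made 12 of 45101 probe sets. Of the 10 genes, 8 had 1 probe set each, and Ccl9 and Cxcl16 had 2 each. The 2D11 cells (arrays 2D11-1, 2D11-2 and 2D11-4) are labelled CD8aa Tregs, and the series title describes them as peripheral regulatory cells whose receptor sees Qa-1, a nonclassical MHC molecule. The OvacD8 cells (arrays OvacD8-1, OvacD8-2 and OvacD8-3) are labelled OT-1 CD8aa+TCRab+ T cells, and their transgenic receptor recognises a peptide of ovalbumin. Both labels name CD8 alpha homodimers, and the series compares the expression patterns of the 2 kinds of cell. Every sample is called a T cell clone, and both kinds of cell were cultured with antigen, antigen-presenting cells and IL-2. Each group may therefore be repeats of 1 clone, and p-values here reflect no more than the spread of these 6 samples, part or all of which may be technical. The labels used here give no strain, age, sex or time after stimulation.

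Chemokines are small secreted proteins that draw cells along a gradient by binding G protein-coupled receptors. An activated CD8 T cell releases CCL3, CCL4, CCL5 and XCL1, which bring in other T cells, monocytes and dendritic cells. Ccl17, Ccl22, Cxcl10 and Cxcl16 are better known as products of dendritic cells, macrophages and other tissue cells.

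Values are the authors' RMA values, used on the log2 scale, and each probe set had been centred on its median over the 6 arrays. They therefore show differences between arrays and carry no level: whether a chemokine was bright or at background cannot be read from them, nor can one gene's level be set against another's. A difference is the mean of 2D11 minus the mean of OvacD8, with the standard error of a limma fit to all 45037 probe sets that are not array controls. A probe set passed at an adjusted p (Benjamini-Hochberg) under 0.05.

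The arrays of OvacD8 were not alike. Over the 29581 of all 45101 probe sets whose highest and lowest arrays lay at least 0.1 apart, OvacD8-2 and OvacD8-3 correlated at r = 0.86, and OvacD8-1 correlated with them at 0.29 and 0.34. The 2D11 arrays correlated with each other at 0.61 to 0.67. Arrays of different groups correlated at -0.65 to -0.43. All of these are correlations of centred values and cannot be set against those of uncentred arrays. The poly-A spike-ins, which follow the handling of the RNA, were read as the mean of 27 probe sets. That mean was -0.09 to 0.73 on the 2D11 arrays, 0.44 on OvacD8-1, and -1.41 and -2.13 on OvacD8-2 and OvacD8-3. The labels do not say what set these arrays apart. The T cell markers fixed for the check of the labels held probe sets for 9 of 10 genes. Of their 17 probe sets, 1 was higher and 3 were lower in 2D11, where 2.00% and 2.05% of all probe sets were. Cd8b1 encodes the beta chain of CD8 and was lower in 2D11 (log2 difference -2.36 ± 0.11, SE, n = 3 per group; limma adjusted p = 0.00142). It stood at -1.48 to -1.07 on the 2D11 arrays, against 1.07 to 1.16 on all 3 OvacD8 arrays. For Cd247, the CD3 zeta chain, 2 probe sets passed as lower (-1.24 ± 0.08 and -1.09 ± 0.07). Its probe sets 1452539_a_at (-1.27 ± 0.33; limma adjusted p = 0.148) and 1426079_at (0.01 ± 0.02) did not pass. The T cell marker that passed as higher was 1 of 5 probe sets of Cd8a, the alpha chain of CD8 (0.85 ± 0.07; limma adjusted p = 0.00814). Another Cd8a probe set had a difference of -2.40 ± 0.44 and did not pass (limma adjusted p = 0.0636). Because of the centring, the presence of CD3, or of either CD8 chain, cannot be checked from these values.

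Of the 12 chemokine probe sets, that of Ccl5 passed as lower in 2D11 and 0 passed as higher. Over all probe sets, 4.06% passed, 2.05% as lower and 2.00% as higher. At an unadjusted p under 0.05 (limma), 4 chemokine probe sets were lower (Ccl3, Ccl4, Ccl5 and 1 of Ccl9) and 1 was higher (Xcl1). Over all 45037 probe sets, 3061 were lower and 4163 were higher at that unadjusted threshold. The groups did not overlap in 5 of the 12, with 4 lower in 2D11 and 1 higher, where 20.3% of all probe sets did not overlap (8.54% lower and 11.7% higher). The median difference of the 12 was -0.15, and their median size was 0.74, against 0.01 and 0.06 over all probe sets. Of the 12, 7 spanned at least 1 from the lowest to the highest array, where 15.6% of all probe sets did so. Only that of Cxcl10 spanned less than 0.1, where 34.4% of all probe sets did. The chemokines were chosen with earlier results of these data known, so these shares describe the 12 and are not a test.

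**Figure D1:**
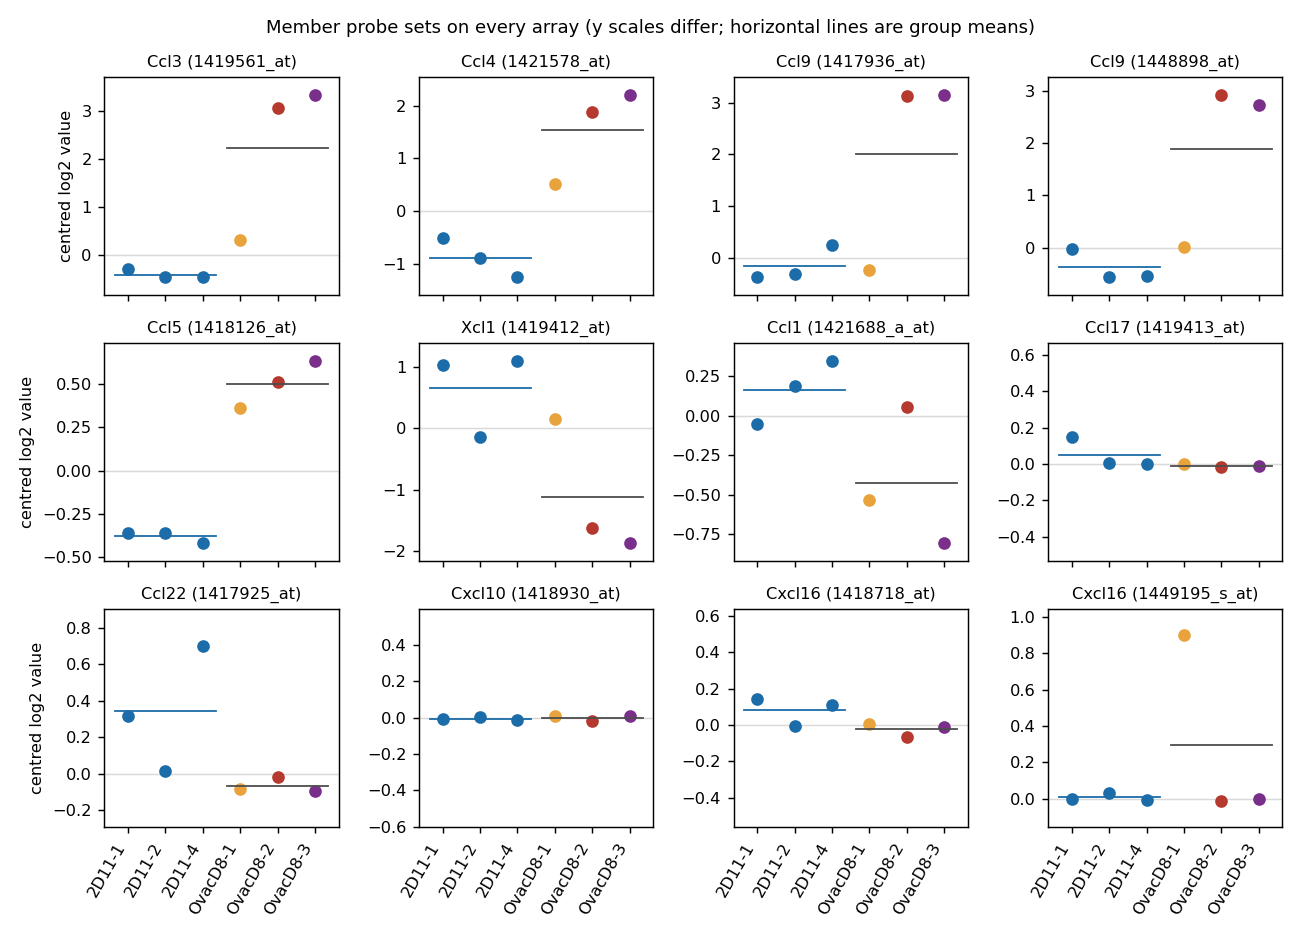
Centred log2 value (y axis, a scale of its own in each panel) of each of the 12 chemokine probe sets on each array (x axis), with 1 point per array, the mean of the 2D11 arrays as a blue line and that of the OvacD8 arrays as a dark line. Ccl3, Ccl4 and both Ccl9 probe sets stand high on OvacD8-2 and OvacD8-3, and Ccl5 stands high on all 3 OvacD8 arrays.

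Ccl5 encodes RANTES, a CC chemokine that effector and memory CD8 T cells store and release. Its probe set stood at -0.36, -0.36 and -0.42 on 2D11-1, 2D11-2 and 2D11-4, against 0.36, 0.51 and 0.63 on OvacD8-1, OvacD8-2 and OvacD8-3. All 3 2D11 arrays were low, all 3 OvacD8 arrays were high, and the groups did not overlap. The difference was -0.88 ± 0.07 (SE, n = 3 per group; limma adjusted p = 0.00795), a 1.84-fold lower value in 2D11. OvacD8-1 went with its group here: the mean of 2D11 lay 1.67-fold below OvacD8-1, 1.86-fold below OvacD8-2 and 2.02-fold below OvacD8-3. Without OvacD8-2 the adjusted p was 0.0516, at a difference of -0.88, and with the replicate number as a block it was 0.113, at -0.80.

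Ccl3 encodes MIP-1 alpha, a ligand of CCR1 and an early product of activated T cells. It stood at -0.30, -0.46 and -0.47 on the 2D11 arrays, against 0.30, 3.08 and 3.33 on OvacD8-1, OvacD8-2 and OvacD8-3. OvacD8-2 and OvacD8-3 were high, OvacD8-1 lay just above the 2D11 arrays, and the groups did not overlap. The difference over all arrays was -2.65 ± 0.88 and did not pass (SE, n = 3 per group; limma adjusted p = 0.241). The mean of 2D11 lay 1.64-fold below OvacD8-1, but 11.2-fold below OvacD8-2 and 13.4-fold below OvacD8-3. Measured from 2D11 towards the mean of OvacD8-2 and OvacD8-3, OvacD8-1 lay 19.7% of the way.

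Ccl4 encodes MIP-1 beta, a CC chemokine that T cells commonly release together with CCL3. It stood at -0.52, -0.89 and -1.26 on the 2D11 arrays, against 0.52, 1.89 and 2.20 on the OvacD8 arrays in the order of their numbers. The groups did not overlap, and OvacD8-1 lay between 2D11 and the other OvacD8 arrays, 48.0% of the way. The difference was -2.43 ± 0.51 and did not pass (SE, n = 3 per group; limma adjusted p = 0.0853). When only probe sets spanning at least 0.1 were tested the adjusted p was 0.0281, but a difference between the groups widens the span, so that filter is not independent of the test. Against single OvacD8 arrays, the mean of 2D11 was 2.66-fold, 6.86-fold and 8.52-fold lower.

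Ccl9 encodes MIP-1 gamma, a CCR1 ligand of rodents. Its probe set 1417936_at stood at -0.38, -0.32 and 0.24 on the 2D11 arrays, against -0.24, 3.14 and 3.14 on the OvacD8 arrays. Its probe set 1448898_at stood at -0.02, -0.56 and -0.55 on the 2D11 arrays, against 0.02, 2.92 and 2.74 on the OvacD8 arrays. In both, OvacD8-2 and OvacD8-3 were high and OvacD8-1 lay with the 2D11 arrays, within their range in the first and just above the highest of them in the second. The differences were -2.17 ± 1.04 and -2.27 ± 0.86, and neither passed (SE, n = 3 per group; limma adjusted p = 0.424 and 0.305). The mean of 2D11 was 9.79-fold and 9.80-fold lower than OvacD8-2 in these probe sets, and 9.84-fold and 8.65-fold lower than OvacD8-3. Against OvacD8-1 it was 1.06-fold higher in the first and 1.32-fold lower in the second. The 2 probe sets differed from each other by a root mean square of 0.42 over the 6 arrays.

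Xcl1 encodes lymphotactin, which activated CD8 T cells and NK cells release and which attracts cross-presenting dendritic cells through XCR1. It ran the other way. It stood at 1.04, -0.15 and 1.09 on the 2D11 arrays, against 0.15, -1.63 and -1.87 on the OvacD8 arrays. OvacD8-2 and OvacD8-3 were low, and OvacD8-1 lay above 2D11-2, so the groups overlapped. The difference was 1.78 ± 0.68 and did not pass (SE, n = 3 per group; limma adjusted p = 0.309). The mean of 2D11 was 1.43-fold higher than OvacD8-1, 4.89-fold higher than OvacD8-2 and 5.79-fold higher than OvacD8-3.

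For 4 of the 12 probe sets (Ccl3, Ccl4 and both of Ccl9) OvacD8-2 and OvacD8-3 both stood at least 1 above every 2D11 array and OvacD8-1, as did 1.15% of all probe sets. For Xcl1 they both stood at least 1 below the other 4 arrays, as did 0.211% of all probe sets. This pattern was chosen after the values were seen. The 2 Ccl9 probe sets measure 1 gene and are not independent, in this count and in the next. Without OvacD8-1, Ccl3 (-3.61 ± 0.10; limma adjusted p = 0.000929), Ccl4 (-2.93 ± 0.26; 0.0102), both Ccl9 probe sets (-3.29 ± 0.22; 0.00573 and -3.20 ± 0.21; 0.00547) and Ccl5 (-0.95 ± 0.05; 0.00284) passed as lower in 2D11. That is 5 of 12, where 5.80% of all probe sets passed as lower, and 0 of 12 passed as higher, where 4.80% did. Xcl1 missed the threshold there (2.41 ± 0.46; adjusted p = 0.0582). In that fit the groups coincide with the spike-in split, so the cell line and the labelling of the RNA cannot be told apart. With the split as a term, the difference rests on OvacD8-1 as the lone OvacD8 array on its side, which is assumed to vary as the others do. Of the 12, 2 passed as lower there and 0 as higher, where 5.24% of all probe sets passed, 3.42% as lower and 1.83% as higher. They were Ccl5 (-0.74; limma adjusted p = 0.0129) and 1 probe set of Cxcl16 (-0.89; 0.00194), while Ccl3 (-0.71; 0.0802), Ccl4 (-1.41; 0.135), Ccl9 (0.08 and -0.40) and Xcl1 (0.51) did not.

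**Figure D2:**
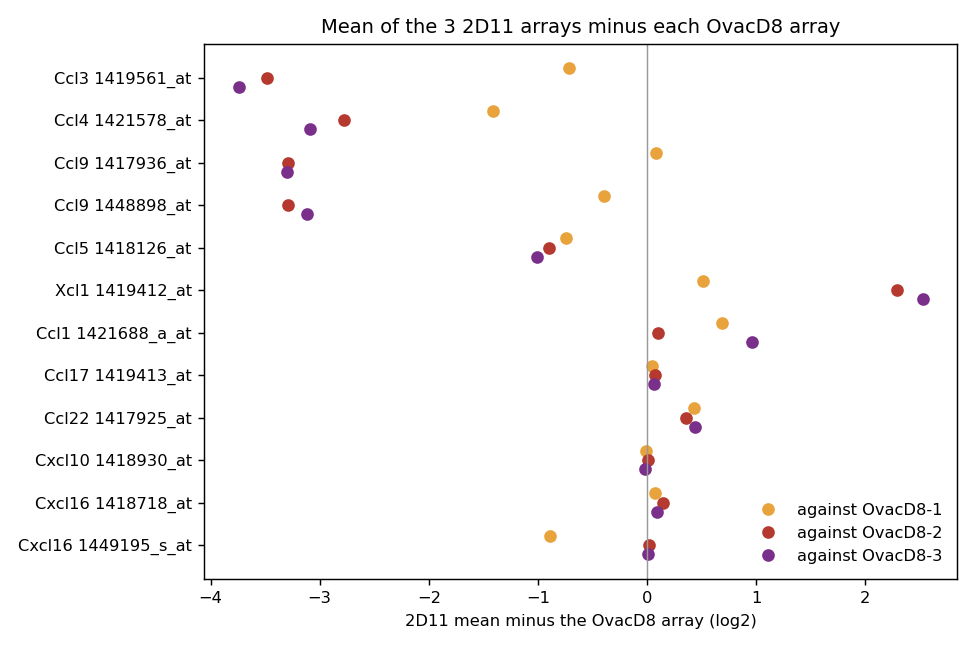
Mean of the 3 2D11 arrays minus each OvacD8 array (x axis, log2) for each chemokine probe set (rows), with 1 coloured point per OvacD8 array and zero marked by the vertical line. The 3 points of Ccl5 lie between -1.01 and -0.74, whereas those of Ccl3 lie at -0.71 for OvacD8-1 and at -3.49 and -3.74 for OvacD8-2 and OvacD8-3.

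Ccl5, Ccl9, Ccl3 and Ccl4 lie in 1 block of chromosome 11 in the RefSeq annotation of assembly GRCm38.p6. Their order along it is Ccl5, Ccl9, Ccl6, Ccl3 and Ccl4, and of 9 annotated genes from Ccl5 to Ccl4, 6 were measured. The annotated extents of Ccl3 and Ccl4 overlap, and whether their probe sets share signal was not tested. Their values differed by a root mean square of 0.77 over the 6 arrays, more than those of Ccl3 and Ccl9 (0.38). Ccl6, which encodes a CCR1 ligand of rodents and lies between Ccl9 and Ccl3, did not follow its neighbours. Its probe set 1417266_at stood at 0.30, -0.06 and 0.06 on the 2D11 arrays, against 2.64, -1.62 and -1.90 on OvacD8-1, OvacD8-2 and OvacD8-3. Only OvacD8-1 was high, and OvacD8-2 and OvacD8-3 lay below all 2D11 arrays. Its second probe set, 1420249_s_at, was again highest on OvacD8-1, at 2.59. The nearest measured genes outside the block were Taf15 and 1700020L24Rik before Ccl5 and Wfdc17 and Wfdc18 after Ccl4. None of their probe sets passed, with differences from -0.20 to 0.58. Wfdc17, named after its values were seen, was also highest on OvacD8-1, at 1.27. It stood at 0.07, 0.01 and -0.01 on the 2D11 arrays and at -0.04 and -0.57 on OvacD8-2 and OvacD8-3.

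**Figure D3:**
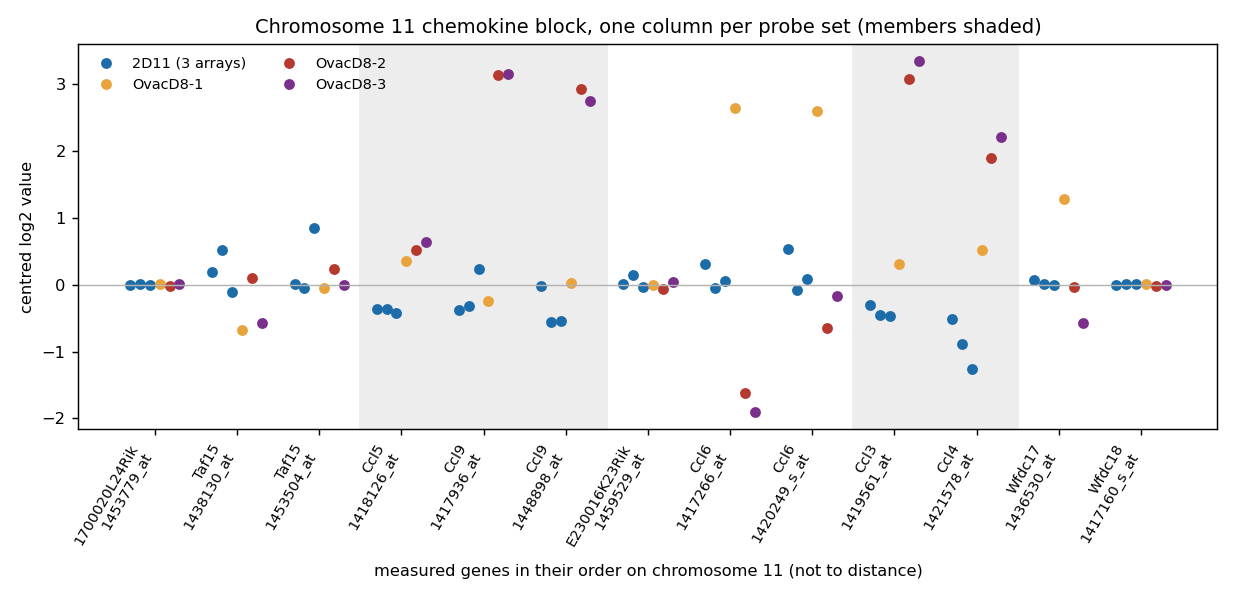
Centred log2 values (y axis) of the measured genes of the chromosome 11 chemokine block and its nearest measured neighbours, in gene order and not to distance (x axis), with 1 column per probe set and 1 point per array, the blue points being the 3 2D11 arrays. The shaded columns are Ccl5, Ccl9, Ccl3 and Ccl4, and the 2 columns of Ccl6 between them have OvacD8-1 at 2.64 and 2.59.

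The sequences before the start sites of Ccl3, Ccl9 and Xcl1 are given because Ccl3 and Ccl9 were high on the same OvacD8 arrays on which Xcl1 was low. The RefSeq table of assembly GRCm38.p6 held the start regions of 7 of the 10 genes: Ccl1, Ccl3, Ccl9, Ccl17, Ccl22, Xcl1 and Cxcl10. Each run below is the 250 bases before the start, 5′ to 3′ on the strand of the gene. Capitals mark matches on either strand to TGANTCA or to GGAAA, the core of the NFAT motif. TGANTCA, with any base at N, is a loose form of the motif of the AP-1 factors and is counted here as an AP-1 motif. The runs cover chr11:83649379-83649628 (minus strand) for Ccl3, chr11:83578637-83578886 (minus strand) for Ccl9 and chr1:164935523-164935772 (minus strand) for Xcl1.
Ccl3: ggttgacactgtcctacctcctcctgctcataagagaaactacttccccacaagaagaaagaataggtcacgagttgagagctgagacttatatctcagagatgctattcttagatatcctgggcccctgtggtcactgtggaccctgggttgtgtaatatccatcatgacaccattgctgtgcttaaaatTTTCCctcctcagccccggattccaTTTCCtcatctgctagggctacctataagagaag
Ccl9: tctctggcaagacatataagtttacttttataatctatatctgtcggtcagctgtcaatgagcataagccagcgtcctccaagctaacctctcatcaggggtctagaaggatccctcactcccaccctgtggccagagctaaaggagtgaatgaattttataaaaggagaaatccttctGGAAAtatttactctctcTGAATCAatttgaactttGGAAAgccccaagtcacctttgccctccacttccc
Xcl1: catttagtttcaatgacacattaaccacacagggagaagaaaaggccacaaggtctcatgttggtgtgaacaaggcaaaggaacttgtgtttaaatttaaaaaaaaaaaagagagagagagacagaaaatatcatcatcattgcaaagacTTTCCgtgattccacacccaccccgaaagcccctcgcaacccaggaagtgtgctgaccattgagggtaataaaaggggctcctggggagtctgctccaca
The Ccl3 run held 2 NFAT cores and no AP-1 motif, the Ccl9 run 2 NFAT cores and 1 AP-1 motif, and the Xcl1 run 1 NFAT core and no AP-1 motif. Of the runs not printed, that of Cxcl10 held 3 NFAT cores and 1 AP-1 motif, and that of Ccl1 3 NFAT cores. The Ccl17 run held 1 NFAT core and the Ccl22 run held neither, so the matches were not particular to the 3 printed genes. No match overlapped another. Of all 32851 such runs in the table, 55.6% held an NFAT core and 6.75% an AP-1 motif. A match shows only that these letters are present, and nothing about binding follows from it.

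The remaining 6 probe sets, of 5 genes, did not pass over all arrays, and Ccl1 was the widest of them with a span of 1.15. Ccl1 encodes a CCR8 ligand made by activated T cells. It stood at -0.05, 0.19 and 0.34 on the 2D11 arrays, against -0.53, 0.05 and -0.81 on the OvacD8 arrays. OvacD8-2 lay within the 2D11 range, and the difference of 0.59 ± 0.25 did not pass (SE, n = 3 per group; limma adjusted p = 0.371).

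Ccl17 and Ccl22 encode the ligands of CCR4, the receptor of type 2 helper and regulatory CD4 T cells, and lie near each other on chromosome 8. Ccl22 stood at 0.32, 0.02 and 0.70 on the 2D11 arrays, against -0.09, -0.02 and -0.10 on the OvacD8 arrays. The groups did not overlap, but 2D11-2 and OvacD8-2 lay close together, and the difference of 0.41 ± 0.18 did not pass (SE, n = 3 per group; limma adjusted p = 0.384). Ccl17 stood at 0.15, 0.01 and -0.001 on the 2D11 arrays, against 0.001, -0.02 and -0.01 on the OvacD8 arrays. It stood above the other arrays on 2D11-1 alone, and the difference of 0.06 ± 0.05 did not pass (adjusted p = 0.709).

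Cxcl10 encodes IP-10, the interferon-induced ligand of CXCR3. It stood between -0.01 and 0.004 on the 2D11 arrays and between -0.02 and 0.01 on the OvacD8 arrays. Its difference was -0.01 ± 0.02 (SE, n = 3 per group; limma adjusted p = 0.942). RMA draws probe sets near background together, and 34.4% of all probe sets spanned less than 0.1, so equal expression is not shown.

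Cxcl16 encodes a membrane-bound ligand of CXCR6, and its 2 probe sets disagreed. The first, 1418718_at, stood at 0.14, -0.01 and 0.11 on the 2D11 arrays, against 0.01, -0.07 and -0.01 on the OvacD8 arrays, with a difference of 0.11 ± 0.05 that did not pass (SE, n = 3 per group; limma adjusted p = 0.383). The second, 1449195_s_at, stood at -0.001, 0.03 and -0.005 on the 2D11 arrays, against 0.90, -0.01 and 0.001 on the OvacD8 arrays. OvacD8-1 alone was high. The difference of -0.29 ± 0.27 did not pass (limma adjusted p = 0.771), and it was 0.02 without OvacD8-1.

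Some markers of dendritic cells and macrophages, which could come with the antigen-presenting cells of the culture, were also high on OvacD8-1. Their list held probe sets for 17 of 18 genes. Of its 29 probe sets, 10 stood at least 1 higher on OvacD8-1 than on every other array, where 0.224% of all probe sets did so. Their mean over the list was -0.08, -0.07 and -0.08 on 2D11-1, 2D11-2 and 2D11-4, against 1.03, 0.11 and 0.13 on OvacD8-1, OvacD8-2 and OvacD8-3. Fcgr3, an Fc receptor, stood between -0.02 and 0.05 on the 2D11 arrays, against 3.35 on OvacD8-1. Tyrobp, the adaptor DAP12, stood at 3.33, and a probe set of Csf1r, the M-CSF receptor, at 2.92. Further probe sets of Csf1r stood at only 0.15 and 0.43 on OvacD8-1. Other genes of the list were flat there: Adgre1, Itgam and Flt3 each stood at 0.01 and Zbtb46 at 0.005 to 0.01. H2-Ab1, a class II chain, passed as lower in 2D11 with 1 of its 3 probe sets (-2.95 ± 0.25; limma adjusted p = 0.00816). The other 2 were not high on OvacD8-1, at 0.27 and -0.002, but stood at 1.85 and 1.10 on OvacD8-2 and at 2.10 and 1.32 on OvacD8-3. Cd68 and Cd14 were high on OvacD8-2 and OvacD8-3, Cd68 at 3.34 and 3.44. These markers, H2-Ab1 apart, were named after their values were seen. Of 8 probe sets of B cell markers, 7 spanned less than 0.1, so they say little about B cells. Which of these markers were at background cannot be read after centring. More cells of a type and more RNA per cell cannot be told apart here, and the part of such cells in the values of Cxcl16, Ccl6 or any other chemokine was not tested.

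**Figure D4:**
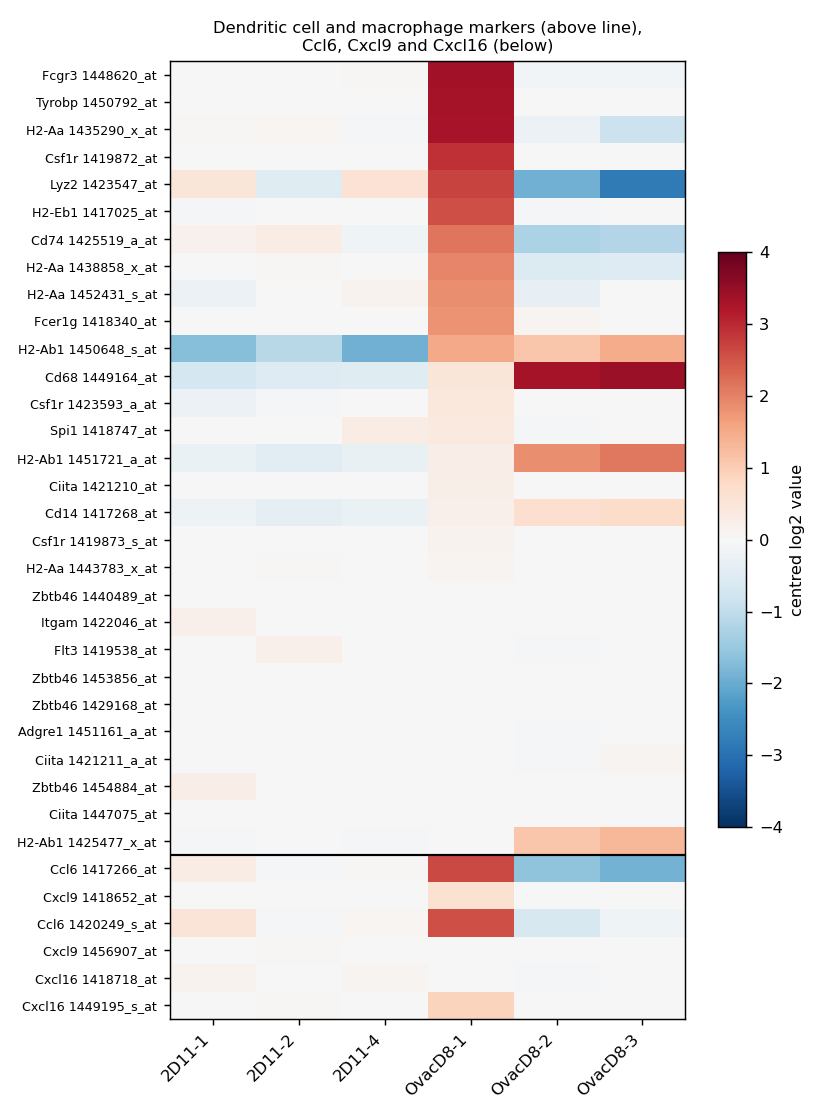
Centred log2 value (colour, red above and blue below the median of the 6 arrays) of the 29 probe sets of dendritic cell and macrophage markers, sorted by their value on OvacD8-1, with Ccl6, Cxcl9 and Cxcl16 under the black line, and arrays in columns. OvacD8-1 is the red column for Fcgr3, Tyrobp and Ccl6, and Cd68 is red on OvacD8-2 and OvacD8-3.

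Of 28 other chemokine genes, 25 were measured, by 41 probe sets. Of these, 0 passed in either direction, where 4.06% of all probe sets did. Over all 45037 probe sets, 3061 were lower and 4163 higher at an unadjusted p under 0.05 (limma). Of the 41, 1 was lower and 0 were higher at that threshold, and their median difference was 0.003. A span of less than 0.1 was held by 34.4% of all probe sets and by 23 of these 41. Ccl6 was the widest of them. Cxcl9, an interferon-induced CXCR3 ligand, stood between -0.01 and 0.01 on the 2D11 arrays in 1 of its probe sets, against 0.61 on OvacD8-1, and was also named after its values were seen.

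The receptors of the chemokines were measured for 9 of 10 genes, by 13 probe sets. Of these, 0 passed and 7 spanned less than 0.1, where 4.06% and 34.4% of all probe sets did. Over all 45037 probe sets, 4163 were higher and 3061 lower at an unadjusted p under 0.05 (limma). Of the 13, 1 was higher and 0 were lower at that threshold. The widest was 1 of 2 probe sets of Ccr1, a receptor for CCL3, CCL5 and CCL9, at -0.08, 0.08 and -0.72 on the 2D11 arrays, against -0.73, 1.77 and 1.48 on the OvacD8 arrays (-1.08 ± 0.75; limma adjusted p = 0.659). It was high on OvacD8-2 and OvacD8-3, and OvacD8-1 lay with 2D11-4. The other Ccr1 probe set had a difference of 0.04 and spanned 0.18, with OvacD8-2 and OvacD8-3 at -0.07 and 0.04. Without OvacD8-1, in the fit whose groups coincide with the spike-in split, 2 of the 13 passed as lower in 2D11, where 5.80% of all probe sets did.

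Of 43 probe sets of genes whose products induce chemokines, 1 was higher and 1 was lower in 2D11. Over all probe sets 2.00% passed as higher and 2.05% as lower, so these counts are close to the share of the array. Nfatc3, an NFAT factor of T cell receptor signalling, was higher with 1 of 2 probe sets (1.27 ± 0.13; limma adjusted p = 0.0124). Jun, a subunit of AP-1, was lower with 1 of 2 (-1.27 ± 0.12; adjusted p = 0.0102). Fos, the partner of Jun, stood at 0.34, -0.85 and -0.34 on the 2D11 arrays, against -0.41, 5.82 and 5.77 on the OvacD8 arrays. Ifng, the type 1 cytokine that induces Cxcl9 and Cxcl10, stood at -0.07, -0.09 and 0.07 on the 2D11 arrays, against -1.20, 2.30 and 2.28 on the OvacD8 arrays. Neither passed, and both were high on the OvacD8 arrays on which Ccl3 was high. Of the 43, 3 stood at least 1 higher on OvacD8-2 and OvacD8-3 than on every 2D11 array and OvacD8-1, as did 1.15% of all probe sets. Other inducers ran the other way. On OvacD8-1, OvacD8-2 and OvacD8-3, Nfkbia probe set 1449731_s_at stood at 0.54, -0.76 and -0.89, and Relb at 0.55, -1.11 and -0.56. Fos, Ifng, Nfkbia and Relb were named after their values were seen. Without OvacD8-1, in the fit whose groups coincide with the spike-in split, 4 of the 43 passed as higher and 9 as lower, where 4.80% and 5.80% of all probe sets did.

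Among 17 probe sets of genes that act on chemokine mRNA decay, Zfp36l2, which binds AU-rich elements, was higher with 1 of 3 (0.50 ± 0.08; limma adjusted p = 0.0382). The other 16 did not pass, and over all probe sets 2.00% passed as higher. Of 12 probe sets for release and processing, 1 of Dpp4, a protease that trims the N-terminus of CCL5 and CXCL10, was higher in 2D11 (1.49 ± 0.08; limma adjusted p = 0.00244). It stood at 0.94, 0.64 and 0.78 on the 2D11 arrays, against -0.73, -0.64 and -0.73 on the OvacD8 arrays. All 4 probe sets of Dpp4 were higher on every 2D11 array than on every OvacD8 array, as were 11.7% of all probe sets. The 4 measure 1 gene and are not independent, and the other 3 did not pass. The 1 of 12 that passed as higher stands beside 2.00% of all probe sets.

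The genes whose pattern over the 6 arrays was most like that of a chemokine were found by the root mean square difference of centred log2 values. For Ccl3 the nearest were 2 probe sets of Tpi1, which encodes a glycolytic enzyme, at 0.10 and 0.13. For Ccl4 they were Isoc2b (0.12) and Rundc3b (0.14), and for Ccl9 Mgarp and Ak4 (0.18 each). For Ccl5 they were 2 probe sets of Pip4k2a, a phosphoinositide kinase, at 0.06 each. The nearest to Xcl1 were farther off, Gm34006 at 0.34 and Tsr2 at 0.37, and the nearest to Ccl1 were Wdr75 (0.09) and Sec62 (0.10). These distances are descriptions over 6 arrays that share their groups.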

How the data were processed

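Per the labels' protocols, RNA of 6 cultured T cell samples was amplified with an Ovation kit (RNA Amplification System V2) and given a biotin label. Per the submitters' processing notes the authors used RMA, version not stated. The deposited values were used as log2 values, although the base is not given in the sources used here: the widest probe set spanned 11.37, beyond what natural logs allow for a 16-bit scanner (11.09). Each probe set had a median within 5e-07 of 0 across the arrays, so the values had been centred, a step no source used here records. With 3 arrays per group, that number sets the precision.

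Sample titles gave the group and number of each array. The platform annotation gave 1 symbol to 34945 probe sets, several to 932 and none to 9160, apart from 64 array controls. The 12 chemokine probe sets matched RefSeq by Entrez identifier with the same symbol. All 45037 other probe sets were fitted in R 4.3.3 with limma 3.58.1 (lmFit, eBayes, two-sided; prior degrees of freedom 0.87), adjusted by Benjamini-Hochberg. Tables were handled with pandas 2.3.3 and numpy 2.4.6. The fit was tested on simulated arrays, where it called 46 of 100 probe sets changed by 1 and 83 of 100 changed by 2 (log2), and 7 of the unchanged ones among 45037 probe sets. The simulated noise was independent between probe sets and arrays, with neither the departure of OvacD8-1 nor the spike-in split. Those counts therefore do not give the power or the false calls in the real arrays.

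The chemokines and the other gene lists were chosen with earlier results of these data known. The text gives every chemokine probe set, and of each other list up to 3 that passed by size, or the widest. List genes that matched no single symbol were not analysed here. As alternatives, each array was left out in turn, and the fit was repeated with a replicate block, array weights, median scaling, a filter on span, a robust prior, the spike-in split as a term, and the mean of the probe sets of each gene.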

Additional observations from a re-analysis of the deposited data

How the results depend on the processing

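Over all probe sets 1827 passed, and of the 12 chemokine probe sets 1 was lower and 0 were higher. Leaving out 1 array gave 811 to 4773 over all probe sets, the highest without OvacD8-1, and 0 to 5 lower chemokine probe sets, 5 without OvacD8-1 and 0 without OvacD8-2, with 0 higher in each. With the replicate block 229 passed in all and 0 chemokines were lower. The replicate numbers are shared by 2 pairs only, whose deviations from the group means correlated at -0.04 and 0.21, and 2 pairs cannot settle whether the numbers pair the arrays. With array weights 17219 passed in all, and 5 chemokine probe sets were higher and 5 lower. The weights ran from 0.228 to 19.0 and their estimate stopped before it converged. Apart from the tally of comparisons below, no statement rests on them. Testing only probe sets spanning at least 0.1 gave 2962 of 29526 and 2 lower of 11 chemokine probe sets, with fewer tested and a filter that is not independent of the test. The spike-in split as a term gave 2 lower, Ccl5 and Cxcl16 1449195_s_at (-0.89, adjusted p = 0.00194), which rest on OvacD8-1. The mean of the probe sets of each gene gave 1214 of 18193 genes. Median scaling and the robust prior changed no call among the 12.

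Of 155 comparisons of a chemokine probe set with an alternative, 134 kept their direction and side of the threshold, 15 passed under the alternative only, 2 no longer passed (Ccl5, without OvacD8-2 and with the replicate block) and 4 changed sign. The 15 include those that passed with array weights: Ccl3, Ccl4, both of Ccl9, Xcl1, Ccl1, Ccl17, Ccl22 and Cxcl16 1418718_at. The sign changes were Ccl9 1417936_at with the split (0.083), Cxcl10 with the block (0.0043), Cxcl16 1418718_at as the mean of both probe sets of the gene (-0.089) and Cxcl16 1449195_s_at without OvacD8-1 (-0.44 to 0.015 over the fits that leave out 1 array). None of these 4 had passed before. The causes were not tested.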
